A study of Mus musculus with 12 samples.

Results

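The 33 genes described here encode the enzymes of the tricarboxylic acid (TCA) cycle and of the entry of pyruvate and glutamine into it. They were chosen by name from this pathway by a rule that uses no measured value, although earlier results of these data were known at that time, and all 33 were found among the 22630 genes of the RNA sequencing files. All 33 also passed the filter on low counts and were tested among 17561 genes.

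Pyruvate made by glycolysis enters mitochondria and is turned into acetyl-CoA by the pyruvate dehydrogenase complex, which kinases switch off and phosphatases switch on, or into oxaloacetate by pyruvate carboxylase. The cycle then oxidizes the acetyl group and passes electrons to the respiratory chain. Glutamine feeds the cycle through glutamate, which glutamate dehydrogenase and the transaminases convert to alpha-ketoglutarate. In pancreatic cancer cells, a route from glutamine through aspartate, oxaloacetate, malate and pyruvate is known as a source of NADPH.

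The tumors were grown from KCip53-1, a single line of mouse pancreatic cancer cells sorted by dsRed from a primary tumor of a mouse whose alleles include Ptf1a-Cre, TREp53R270H and R26rtTa/rtTa. Cre is driven by Ptf1a in the pancreatic epithelium, where it turns on rtTa, and doxycycline (dox) then induces the p53R270H transgene together with dsRed, so that all 3 groups carry the same alleles. NSG mice of 8 to 10 weeks, a strain without mature lymphocytes or NK cells, received 500000 cells per subcutaneous tumor in 50% Matrigel, with 2 tumors per mouse. The 4 no-dox tumors had 0 days of dox, the 4 plus-dox tumors 36 days, and the 4 off-dox tumors 33 days followed by 3 days without it, at 0.2 g/l in 5% sucrose. The study's text describes off-dox differently, as removal once tumors were palpable. Whether the no-dox mice drank sucrose is not given in the sources used here, and no group received dox without the transgene, so effects of sucrose, of dox itself and of p53R270H cannot be told apart. RNA came from whole unsorted tumors, and the pairing of tumors within mice is not given in the sources used here, so that the tests, which take tumors as independent, may overstate their precision.

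Between 19845923 and 33137609 reads per tumor fell on genes. The share of mapped reads on genes was 88.4% to 89.4% in no-dox, 82.2% to 87.1% in plus-dox and 81.1% to 85.8% in off-dox tumors, which separates the no-dox tumors from the other 8. RPKM is set per total of mapped reads and carries this share, whereas log2 CPM (counts scaled to the library total with TMM factors), on which the tests rest, do not. Trp53 was at 40.1 to 57.4 RPKM in no-dox, at 40.4 to 56.0 in plus-dox and 41.6 to 45.4 in off-dox tumors, with log2 fold changes from no-dox of 0.04 (edgeR adjusted p = 0.891) and −0.08 (adjusted p = 0.699). The counts therefore do not separate the groups by the targeted gene, and they cannot tell the transgene from the host's own Trp53, so the groups are named by their dox labels throughout. In subcutaneous KCip53 tumors the study's staining found dsRed with dox, none in no-dox tumors and fewer positive cells in off-dox tumors. From PCR and sequencing, the study reported only the mutant p53 sequence in KCip53 lines. Plus-dox tumor 2 and off-dox tumor 4 stood apart from the other 10 on the first principal component of all genes, which held 49.8% of the variance, and had the lowest Epcam, an epithelial adhesion gene, at 7.76 and 40.9 RPKM against 72.3 to 388 in the others. Their sums over 11 epithelial markers were 1370 and 1595 RPKM, while off-dox tumor 3 had the lowest sum at 1186.

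The upstream sequences of the 3 genes with the lowest adjusted p among the 33, Idh2, Idh1 and Suclg1, are shown because the comparison of off-dox with no-dox tumors rests mainly on them. They are the 250 bases before each RefSeq start in GRCm38.p6, written 5′ to 3′ on the strand of the gene, with capitals marking GGGCGG (the GC box) and CCAAT on either strand.
Idh2 (chr7:80115351-80115600, minus strand): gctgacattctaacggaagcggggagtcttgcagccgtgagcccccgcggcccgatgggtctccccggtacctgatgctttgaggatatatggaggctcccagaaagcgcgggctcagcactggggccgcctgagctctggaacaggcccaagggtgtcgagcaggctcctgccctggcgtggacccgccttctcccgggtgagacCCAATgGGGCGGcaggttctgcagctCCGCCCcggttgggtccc
Idh1 (chr1:65186480-65186729, minus strand): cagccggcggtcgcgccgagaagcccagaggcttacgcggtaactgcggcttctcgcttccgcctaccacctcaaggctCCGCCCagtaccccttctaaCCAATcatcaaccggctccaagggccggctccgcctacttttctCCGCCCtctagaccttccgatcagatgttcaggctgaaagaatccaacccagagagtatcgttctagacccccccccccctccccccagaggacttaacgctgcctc
Suclg1 (chr6:73248255-73248504, plus strand): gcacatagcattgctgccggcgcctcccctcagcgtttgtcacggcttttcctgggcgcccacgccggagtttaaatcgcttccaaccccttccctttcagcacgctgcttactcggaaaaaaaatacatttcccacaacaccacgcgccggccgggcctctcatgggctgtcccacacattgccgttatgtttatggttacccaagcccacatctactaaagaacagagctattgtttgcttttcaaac
Idh2 and Idh1 each held 2 GC boxes and 1 CCAAT in this window, and Suclg1 held 0 of both, at a GC content of 67.2%, 61.6% and 53.2%. Idh1 has another RefSeq start with 1 GC box and no CCAAT in its window. Of the 33 genes, 30 had a sequence in the table, and 21 of them (70%) held a GC box in at least 1 window against 35.4% of all 27025 genes. CCAAT was found in 17 of the 30 (56.7%) against 37.5% of all genes. The decamer half-site consensus of p53 was found in Got1, Me3 and Pdhx, 10.0% of the 30, against 8.2% of all genes. These matches describe letters in the window only.

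In plus-dox against no-dox tumors, 24 of the 33 genes had lower and 9 higher expression, where 48.6% of all genes were lower, with a median log2 fold change of −0.12 against 0.01 over all genes tested. None of the 33 passed the limits used by the study (edgeR adjusted p under 0.1 and a change over 1.5-fold), as was the case for all genes tested, of which 0% were called. At an unadjusted p under 0.05 there were 7 of the 33, all lower, where 13.7% of all genes passed in either direction and 5.67% with lower expression. DESeq2 called 0 of the 33 under the same limits, where it called 128 of all genes without and 90 with moderated fold changes. In 5 of the 33, all lower, every plus-dox value lay outside the no-dox range on log2 CPM (no overlap), against 8.86% of all genes in either direction and 4.49% lower. They were Sucla2, Mdh1, Me1, Glud1 and Slc25a1. On deposited RPKM, Sucla2 and Me1 did overlap, and 3 genes did not.

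In off-dox against no-dox tumors, 27 of the 33 were lower and 6 higher, where 49.3% of all genes were lower, with a median log2 fold change of −0.23 against 0.01 over all genes tested. Idh2, the NADP-linked isocitrate dehydrogenase of mitochondria, was the 1 gene of 33 that passed the study's limits, where 1.34% of all genes passed in either direction and 0.307% with lower expression. With an adjusted p under 0.1 alone there were 3, Idh2, Idh1 and Suclg1, against 3.46% of all genes and 1.38% lower. An unadjusted p under 0.05 was found for 13, all lower, where 20.4% of all genes passed in either direction and 9.48% lower. No overlap between off-dox and no-dox values was found for 8, all lower, namely Pcx, Idh3b, Sucla2, Suclg1, Idh1, Idh2, Mdh1 and Glud1, against 11.5% of all genes in either direction and 5.69% lower. Both comparisons use the same 4 no-dox tumors, so their values are set side by side and are not independent.

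These differences moved with the share of reads on genes. With that share as a covariate, an alternative chosen after seeing the data, the median over the 33 was 0.034 for plus-dox and −0.012 for off-dox against no-dox, and 0 of the 33 had an unadjusted p under 0.05 in either comparison. Over all 17561 genes, an unadjusted p under 0.05 was then found for 478 in place of 2400 and for 308 in place of 3586, and edgeR called 0. The share and the groups cannot be told apart, since no no-dox tumor lies within the range of the others. Summed RPKM of the 33 genes was 1373, 1364, 1288 and 1258 in the 4 no-dox tumors, 1202, 1230, 998 and 1150 in plus-dox and 1127, 1021, 971 and 1149 in off-dox tumors. The no-dox sums were above all 8 others. The 2 lowest sums were in plus-dox tumor 3 and off-dox tumor 3, the lowest tumors for 11 and 9 of the 33 genes. RPKM carries the share of reads on genes, however, and on log2 CPM the groups overlapped. There the median deviation of the 33 genes from their means over all tumors was 0.143, 0.128, 0.136 and 0.0885 in no-dox tumors. It was 0.134 in plus-dox tumor 2 and 0.0906 in off-dox tumor 4.

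**Figure D1:**
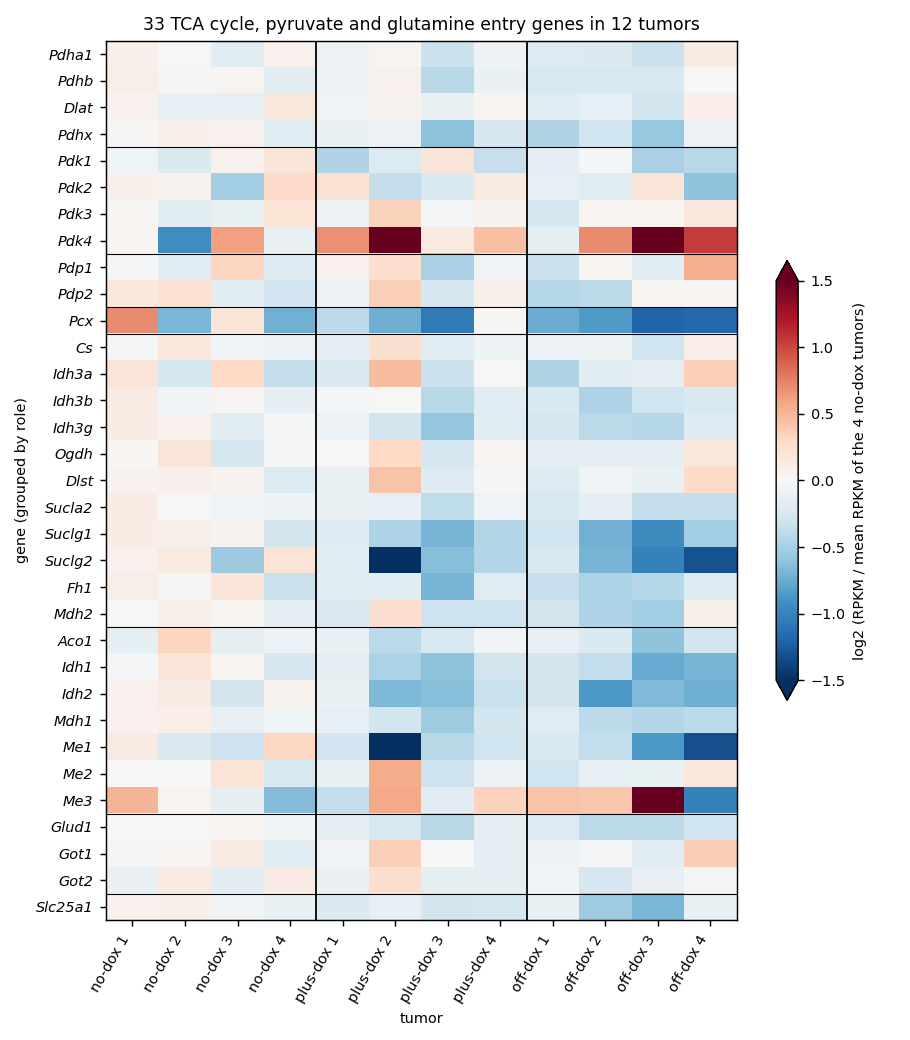
Heat map of the 33 genes (lines, grouped by role) in the 12 tumors (columns), colored by the log2 ratio of RPKM to the mean of the 4 no-dox tumors, with colors saturated at 1.5 in either direction. Suclg1, Idh1, Idh2, Mdh1 and Glud1 are lower across most dox-exposed tumors, Pdk4 is highest in plus-dox tumor 2 and off-dox tumor 3, and Me1 and Suclg2 are lowest in plus-dox tumor 2 and off-dox tumor 4.

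Levels differed between the genes far more than between the groups. By mean RPKM over the 12 tumors, which is per length and so comparable between genes, the order was led by Mdh2 (mitochondrial malate dehydrogenase) at 137, followed by Glud1 at 80.2, Idh3b at 76.4, Mdh1 at 75.3 and Idh2 at 68.5. The range of Glud1 in each group overlapped with those of Idh3b and Mdh1, so the order of these neighbors is not fixed by the data, whereas Mdh2 lay above all of them in every tumor. Of the 33 genes, 11 averaged over 50 RPKM, 15 between 10 and 50, 6 between 1 and 10, and Me3 alone was under 1. The steadiest was Dlat, the acetyltransferase of pyruvate dehydrogenase, with a coefficient of variation of 9.26% over the 12 tumors. In 28 genes this coefficient was under 25%, and the 5 above it were Pdk4 (66.8%), Me3 (63.8%), Pcx (48.0%), Suclg2 (35.7%) and Me1 (33.5%).

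The 4 genes of the pyruvate dehydrogenase complex in the set varied little. Pdha1, a subunit of its E1 enzyme, averaged 55.9 ± 4.21 RPKM (SD, n = 4) in no-dox tumors, against 52.0 ± 5.40 with dox and 50.5 ± 6.93 after its withdrawal. Its partner Pdhb averaged 42.6 ± 3.35, 39.1 ± 5.31 and 37.7 ± 3.33 in no-dox, plus-dox and off-dox tumors, and Dlat 10.6 ± 1.09, 10.5 ± 0.592 and 9.81 ± 1.14. These differences are within about the spread of a group, except for Pdhb in off-dox tumors. Its off-dox mean lay below the no-dox mean by more than the SD of either group, although the groups overlapped. The log2 fold change of Pdhb was −0.14 there, with an edgeR adjusted p of 0.470. All 4 genes of the complex in the set had lower means in both dox-exposed groups without a call. Dld, the E3 enzyme of the complex, is counted below among the neighboring genes and is named here after its values were seen. Both dox-exposed groups lay below all no-dox tumors in Dld, with log2 fold changes of −0.26 (plus-dox) and −0.32 (off-dox). The edgeR adjusted p were 0.326 and 0.101. Pdhx, the component that binds the E3 enzyme, was at 10.8, 11.2, 11.1 and 9.38 RPKM in no-dox, 9.89, 10.0, 6.93 and 8.88 in plus-dox and 7.77, 8.63, 7.13 and 9.95 in off-dox tumors. Its groups overlapped through no-dox tumor 4, and off-dox against no-dox the log2 fold change was −0.31 ± 0.14 (SE), with an edgeR adjusted p of 0.234. With the share of reads on genes as a covariate it was 0.035.

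The kinases that inhibit the complex differed in their evenness. Pdk1, a kinase known as a hypoxia target, made up 36.5% to 54.8% of the summed kinase RPKM across the 12 tumors, Pdk3 24.7% to 34.1% and Pdk2 14.8% to 26.3%. The sum of the 4 kinases was 37.0 ± 4.12, 36.6 ± 3.00 and 34.5 ± 2.13 RPKM (SD, n = 4) in no-dox, plus-dox and off-dox tumors, a difference within the spread of the groups. Pdk4, the kinase linked to fasting and fatty acid use in muscle, was at 1.25, 0.645, 1.88 and 1.13 RPKM in no-dox, 1.97, 5.46, 1.35 and 1.67 in plus-dox and 1.11, 2.01, 4.27 and 2.53 in off-dox tumors. Its share of the kinase sum was highest in plus-dox tumor 2 at 13.7% and off-dox tumor 3 at 11.9%, against 1.95% to 5.29% in no-dox tumors, and the groups overlapped. Its log2 fold changes from no-dox were 1.09 ± 0.51 and 1.03 ± 0.51 (SE), with edgeR adjusted p of 0.371 and 0.275.

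**Figure D2:**
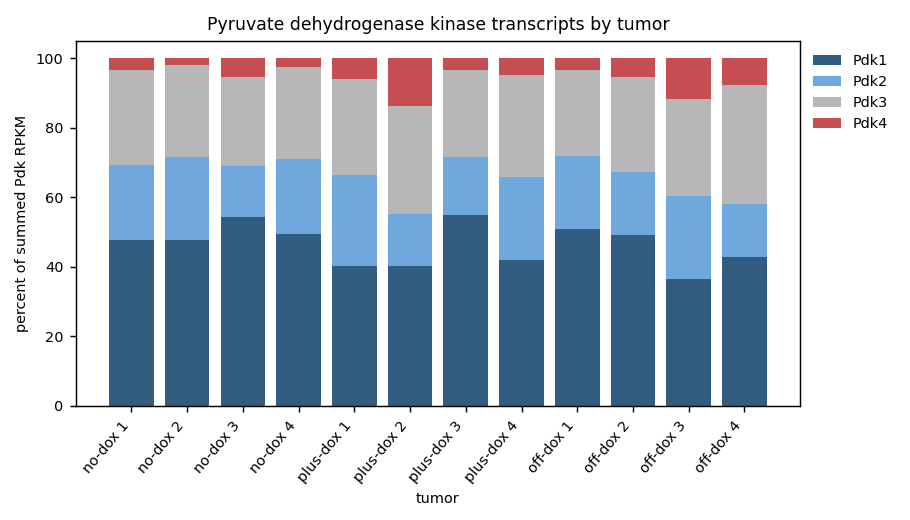
Stacked bars of the 4 pyruvate dehydrogenase kinases as percent of their summed RPKM in each of the 12 tumors. Pdk1 is the largest part in every tumor, and Pdk4 exceeds 10% in plus-dox tumor 2 (13.7%) and off-dox tumor 3 (11.9%).

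Pdk4 was seen beside markers of skeletal muscle. All 12 genes of the muscle list were measured, with none at 0 in all tumors, and their summed RPKM was 12.1 to 214 in no-dox, 167 to 519 in plus-dox and 13.2 to 1428 in off-dox tumors. The 2 tumors with the highest Pdk4 were first (off-dox tumor 3) and next but 1 (plus-dox tumor 2, 519) in muscle sum, while off-dox tumor 2, between them at 923, had Pdk4 at 2.01 RPKM and off-dox tumor 4, at 13.2, had 2.53. In whole tumors, fewer cells of a type and less RNA per cell cannot be told apart, and the part of muscle in the Pdk4 values was not tested.

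The phosphatases that reactivate the complex, Pdp1 and Pdp2, had log2 fold changes between −0.13 and 0.09 from no-dox, without a difference beyond the spread. Pdp1 averaged 7.52 ± 1.31, 7.38 ± 1.52 and 7.84 ± 2.19 RPKM (SD, n = 4) in no-dox, plus-dox and off-dox tumors, and Pdp2 1.69 ± 0.296, 1.75 ± 0.322 and 1.51 ± 0.269.

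Pcx, pyruvate carboxylase, refills the cycle with oxaloacetate and is abundant in fat. It was at 9.78, 3.72, 6.83 and 3.65 RPKM in no-dox, 4.55, 3.60, 2.87 and 6.09 in plus-dox and 3.57, 3.33, 2.61 and 2.66 in off-dox tumors. No-dox tumors 1 and 3 were far above the rest, and the other no-dox tumors were just above the highest off-dox tumor, so that no-dox and off-dox did not overlap while plus-dox overlapped with both. The log2 fold change was −0.95 ± 0.31 (SE) in off-dox and −0.48 ± 0.30 in plus-dox against no-dox, with edgeR adjusted p of 0.131 and 0.472, and DESeq2 called the former with an adjusted p of 0.0423.

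The 4 tumors with the highest Pcx were also the 4 with the highest sums over adipocyte markers. These were no-dox tumors 1 and 3 (1165 and 953 RPKM) and plus-dox tumors 4 and 1 (737 and 556), against 17.3 to 371 in the other 8 tumors, over a list of 10 genes that were all measured with none at 0 in all tumors. Without these 4 tumors, a set chosen after seeing the data, the log2 fold change of Pcx off-dox against no-dox was −0.25. These tumors also held the 4 highest Pcx values, no-dox tumors 1 and 3 among them, so a smaller difference was built into the choice. The fit therefore cannot show the part of fat tissue in the Pcx values, which was not tested.

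Citrate synthase (Cs), which starts the cycle, did not differ beyond the spread, at 53.8 ± 4.25, 53 ± 7.38 and 50.8 ± 5.75 RPKM (SD, n = 4) in no-dox, plus-dox and off-dox tumors. The NAD-linked isocitrate dehydrogenase, a complex of 3 gene products, was uneven among its subunits. Its catalytic subunit Idh3a averaged 28.6 ± 6.4, 28.8 ± 7.41 and 27.3 ± 6.65, with log2 fold changes of 0.02 and −0.04 from no-dox. Idh3b was at 92.1, 82.0, 86.7 and 76.7 RPKM in no-dox, 82.7, 84.5, 63.2 and 75.8 in plus-dox and 71.7, 61.2, 68.7 and 71.6 in off-dox tumors. All 4 off-dox tumors were below all no-dox tumors in Idh3b, with a log2 fold change of −0.27 ± 0.10 (SE) and an edgeR adjusted p of 0.166. The other regulatory subunit, Idh3g, was at 71.6, 69.5, 59.0 and 65.6 RPKM in no-dox, 62.7, 54.9, 44.6 and 58.5 in plus-dox and 55.5, 50.2, 49.2 and 57.9 in off-dox tumors. On log2 CPM its groups overlapped, and its log2 fold change was −0.26 ± 0.10 for plus-dox and −0.29 ± 0.10 for off-dox against no-dox, with edgeR adjusted p of 0.332 and 0.150.

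The subunits of alpha-ketoglutarate dehydrogenase in the set were close to level. Ogdh averaged 18.6 ± 2.34, 19.1 ± 2.99 and 18.0 ± 1.98 RPKM (SD, n = 4) in no-dox, plus-dox and off-dox tumors and Dlst 42.2 ± 3.66, 43.6 ± 9.09 and 42.2 ± 6.79. Their log2 fold changes from no-dox lay between −0.02 and 0.06.

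Succinyl-CoA ligase, which makes ATP or GTP as it releases succinate, had lower mean RPKM in both dox-exposed groups in all 3 of its genes, none of which was called by edgeR. The shared subunit Suclg1 was at 72, 70.2, 69.5 and 55.3 RPKM in no-dox, 58.4, 48.2, 41.2 and 49.3 in plus-dox and 54.4, 40.3, 34.6 and 46.7 in off-dox tumors. All off-dox tumors were below all no-dox tumors, while plus-dox tumor 1 was above no-dox tumor 4. The log2 fold change was −0.57 ± 0.14 (SE) in off-dox and −0.43 ± 0.14 in plus-dox against no-dox, with edgeR adjusted p of 0.0897 and 0.326, and the former was under the 1.5-fold limit. With the share of reads on genes as a covariate both were −0.07.

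Suclg2, the GTP-linked subunit, was at 33.2, 35.1, 21.7 and 36.6 RPKM in no-dox, 27.8, 11.3, 20.3 and 23.4 in plus-dox and 27.1, 19.6, 15.7 and 12.8 in off-dox tumors. Plus-dox tumor 2 and off-dox tumor 4 were the 2 lowest, and no-dox tumor 3 lay within the range of the dox-exposed tumors. Its log2 fold change was −0.73 ± 0.27 (SE) in off-dox and −0.61 ± 0.27 in plus-dox against no-dox, with edgeR adjusted p of 0.175 and 0.360. Without plus-dox tumor 2 and off-dox tumor 4 the off-dox value was −0.59 and the plus-dox value −0.41. Without the 4 tumors of high adipocyte marker sums, a set chosen after seeing the data, they were −0.91 and −1.12. Sucla2, the ATP-linked subunit, varied less, at 30.1, 27.8, 26.7 and 26.2 RPKM in no-dox, 25.8, 25.5, 21.3 and 26.7 in plus-dox and 23.4, 25.2, 21.7 and 21.6 in off-dox tumors. Its off-dox tumors were all below its no-dox tumors, with log2 fold changes of −0.24 ± 0.08 and −0.15 ± 0.08 for off-dox and plus-dox and edgeR adjusted p of 0.144 and 0.422. The ratio of Suclg2 to Sucla2 RPKM, a description chosen after seeing the data, was 0.812 to 1.39 in no-dox, 0.442 to 1.077 in plus-dox and 0.591 to 1.16 in off-dox tumors, with plus-dox tumor 2 and off-dox tumor 4 lowest.

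Fumarate hydratase (Fh1), the next enzyme among the 33, was at 63.7, 61.0, 68.2 and 47.7 RPKM in no-dox, 53.6, 54.0, 37.0 and 52.9 in plus-dox and 47.2, 43.5, 44.9 and 52.3 in off-dox tumors. The groups overlapped through no-dox tumor 4, and off-dox against no-dox the log2 fold change was −0.32 ± 0.13 (SE) with an edgeR adjusted p of 0.203. Mdh2, which closes the cycle, averaged 150 ± 10.4, 137 ± 27.6 and 124 ± 24.2 RPKM (SD, n = 4) in no-dox, plus-dox and off-dox tumors, and plus-dox tumor 2 at 178 and off-dox tumor 4 at 159 reached or passed the no-dox tumors. Its log2 fold change of −0.24 ± 0.16 in off-dox tumors had an edgeR adjusted p of 0.428.

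The NADP-linked isocitrate dehydrogenases, which make NADPH in the cytosol (Idh1) and in mitochondria (Idh2), had their highest levels in no-dox tumors. Idh2 was at 89.8, 93.0, 71.0 and 88.6 RPKM in no-dox, 79.8, 53.8, 54.9 and 67.7 in plus-dox and 70.6, 47.0, 53.9 and 51.7 in off-dox tumors. Off-dox tumor 1 lay just under no-dox tumor 3, and the other 3 off-dox tumors were well below all no-dox tumors, while plus-dox tumor 1 overlapped with no-dox. Off-dox against no-dox, Idh2 fell by 0.59 on the log2 scale (SE 0.14, edgeR adjusted p = 0.0889), and plus-dox against no-dox its log2 fold change was −0.41 ± 0.14 (adjusted p = 0.326). The call sits at the limits and was lost in 9 of the 12 fits that left out 1 tumor (log2 fold change −0.51 to −0.71), under RLE scaling (−0.58) and with a replicate block (−0.60, edgeR adjusted p = 0.133). DESeq2, the tool of the study, gave −0.58 with an adjusted p of 0.00972 and, moderated, −0.53 with 0.0104, both under the 1.5-fold limit. With the share of reads on genes as a covariate the log2 fold change was −0.22.

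Idh1 was at 63.5, 73.0, 66.0 and 54.1 RPKM in no-dox, 58.2, 46.0, 42.0 and 52.8 in plus-dox and 53, 49.8, 38.1 and 39.7 in off-dox tumors. All off-dox tumors were below no-dox, with off-dox tumor 1 close to no-dox tumor 4, and plus-dox tumor 1 was above no-dox tumor 4. The log2 fold change was −0.48 ± 0.13 (SE) in off-dox and −0.36 ± 0.13 in plus-dox tumors, with edgeR adjusted p of 0.0967 and 0.327, and neither reached 1.5-fold. The ratio of Idh2 to Idh1 RPKM was 1.35 ± 0.238, 1.28 ± 0.0846 and 1.25 ± 0.209 (SD, n = 4) in no-dox, plus-dox and off-dox tumors, within the spread of the groups.

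**Figure D3:**
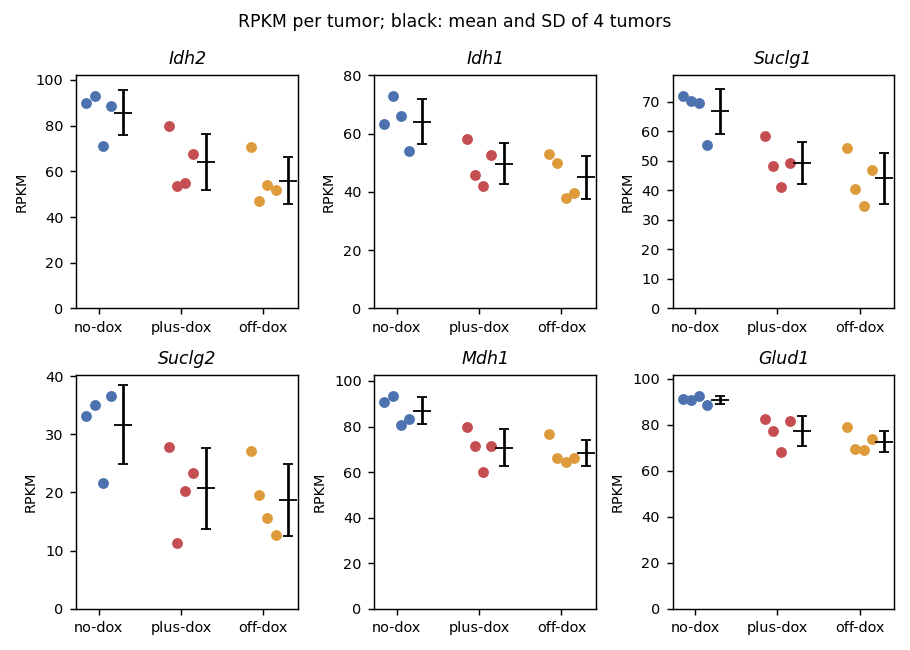
RPKM of Idh2, Idh1, Suclg1, Suclg2, Mdh1 and Glud1 in each tumor by group, with the mean and SD of 4 tumors in black and axes from 0. Every off-dox tumor lies below every no-dox tumor in all but Suclg2, where no-dox tumor 3 (21.7 RPKM) lies below off-dox tumor 1 (27.1 RPKM).

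Mdh1, the cytosolic malate dehydrogenase of the malate-aspartate shuttle, was at 90.6, 93.4, 80.7 and 83.1 RPKM in no-dox, 79.7, 71.6, 60.2 and 71.6 in plus-dox and 76.9, 66.0, 64.4 and 66.0 in off-dox tumors. No tumor of either dox-exposed group reached the no-dox range. The log2 fold change was −0.32 ± 0.09 (SE) in off-dox and −0.29 ± 0.09 in plus-dox against no-dox, with edgeR adjusted p of 0.103 and 0.322. With the share of reads on genes as a covariate they were −0.03 and −0.09.

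The malic enzymes, which turn malate into pyruvate, differed from one another. Me1, the NADPH-making cytosolic form, was at 60.5, 47.4, 44.7 and 68.5 RPKM in no-dox, 45.4, 17.3, 41.6 and 45.0 in plus-dox and 46.9, 43.0, 30.5 and 22.2 in off-dox tumors. Plus-dox tumor 2 and off-dox tumor 4 were lowest, as they were for Suclg2 and Epcam, while off-dox tumor 3 was next, and the other 5 dox-exposed tumors were near the lower no-dox tumors. Its log2 fold change was −0.56 ± 0.30 (SE) for plus-dox and −0.61 ± 0.30 for off-dox tumors, with edgeR adjusted p of 0.417 and 0.268. Me2, a mitochondrial form, averaged 14.1 ± 1.79, 14.6 ± 4.14 and 13.4 ± 1.82 RPKM (SD, n = 4) in no-dox, plus-dox and off-dox tumors and was highest in plus-dox tumor 2 at 20.7. The share of Me1 in the sum of the 3 malic enzymes was therefore 45.2% in plus-dox tumor 2 and 58.2% in off-dox tumor 4, against 68.8% to 85.0% in the other 10 tumors. Me3 stayed under 1 RPKM in every tumor, with 0.670 in off-dox tumor 3 as its highest value.

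Me1 and Suclg2 were set beside epithelial markers. All 11 markers were measured, with none at 0 in all tumors, and their summed RPKM was 2493 to 3444 in no-dox, 1370 to 2192 in plus-dox and 1186 to 2932 in off-dox tumors. Off-dox tumor 3, plus-dox tumor 2 and off-dox tumor 4 had the lowest sums and the lowest Me1 and Suclg2. No-dox tumor 3 ranked 4 from the highest in marker sum but 7 in both genes. Without plus-dox tumor 2, Me1 in plus-dox against no-dox had a log2 fold change of −0.33. A fit chosen after seeing the data took the mean log2 CPM of the epithelial markers, not their summed RPKM, as a covariate. The log2 fold change from no-dox was then −0.22 for Me1 and −0.26 for Suclg2 in plus-dox tumors, and −0.51 for Suclg2 in off-dox tumors. In the same fit the median over the 33 genes was −0.23 for plus-dox and −0.23 for off-dox against no-dox, and Idh2 off-dox was at −0.53, under the 1.5-fold limit. How far the makeup of the tumors enters the values of the 33 genes was not tested beyond these fits.

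**Figure D4:**
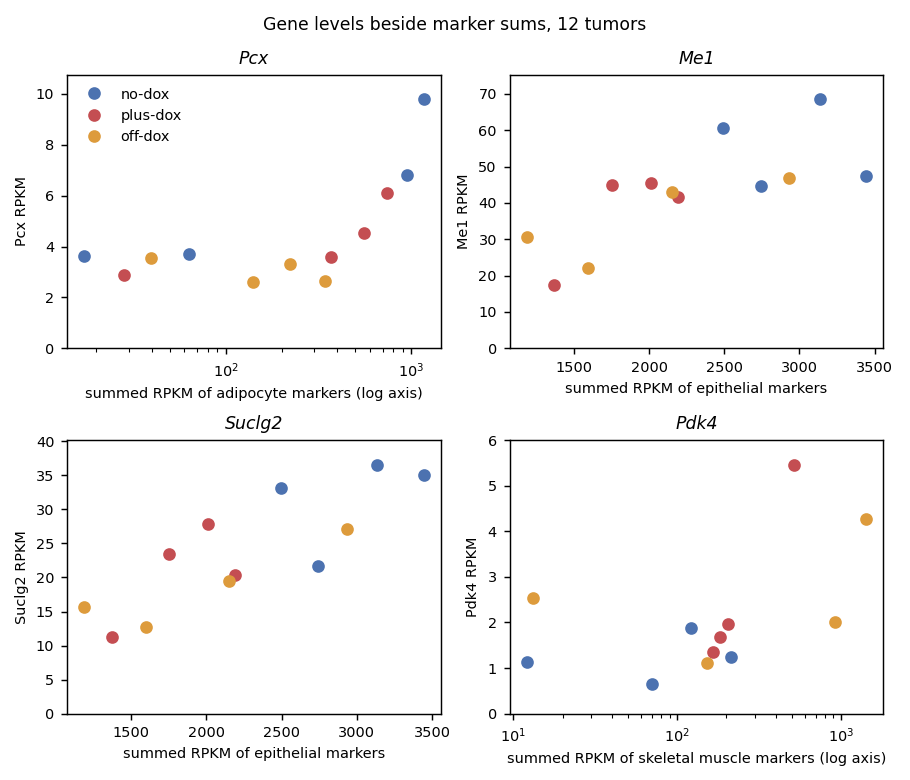
RPKM of Pcx, Me1, Suclg2 and Pdk4 in the 12 tumors against the summed RPKM of adipocyte, epithelial, epithelial and skeletal muscle markers, with log horizontal axes for adipocyte and muscle sums and colors for the groups. The 4 highest Pcx values belong to the 4 highest adipocyte sums, and Me1 and Suclg2 are lowest in the 3 tumors with the lowest epithelial sums (1186, 1370 and 1595).

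Aco1, the cytosolic aconitase that doubles as an iron sensor, averaged 16.8 ± 2.79, 14.7 ± 1.62 and 13.7 ± 1.93 RPKM (SD, n = 4) in no-dox, plus-dox and off-dox tumors, and its groups overlapped.

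Of the genes of glutamate and aspartate, Glud1 (glutamate dehydrogenase) was at 91.1, 90.6, 92.4 and 88.4 RPKM in no-dox, 82.5, 77.0, 68.0 and 81.6 in plus-dox and 78.9, 69.3, 68.8 and 73.6 in off-dox tumors. The 4 no-dox tumors were within 5 RPKM of each other and above all 8 dox-exposed tumors. The log2 fold change was −0.29 ± 0.09 (SE) in off-dox and −0.22 ± 0.09 in plus-dox against no-dox, with edgeR adjusted p of 0.111 and 0.332, and −0.09 and −0.08 with the share of reads on genes as a covariate. Got1, of the cytosol, averaged 17.1 ± 1.42, 17.8 ± 2.86 and 17.7 ± 3.08 RPKM (SD, n = 4) in no-dox, plus-dox and off-dox tumors, and Got2, of mitochondria, 39.1 ± 4.25, 38.4 ± 5.36 and 36.2 ± 2.40, with log2 fold changes between −0.08 and 0.08.

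Slc25a1, the carrier that exports citrate from mitochondria for lipid synthesis, was at 50.5, 50.6, 46.3 and 45.0 RPKM in no-dox, 41.4, 44.1, 39.6 and 40.0 in plus-dox and 45.0, 33.2, 29.8 and 44.5 in off-dox tumors. The plus-dox tumors were below all no-dox tumors, while off-dox tumor 1 just overlapped. Its log2 fold change was −0.21 ± 0.13 (SE) for plus-dox and −0.30 ± 0.13 for off-dox tumors, with edgeR adjusted p of 0.475 and 0.225, and 0.045 and 0.041 with the share of reads on genes as a covariate.

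**Figure D5:**
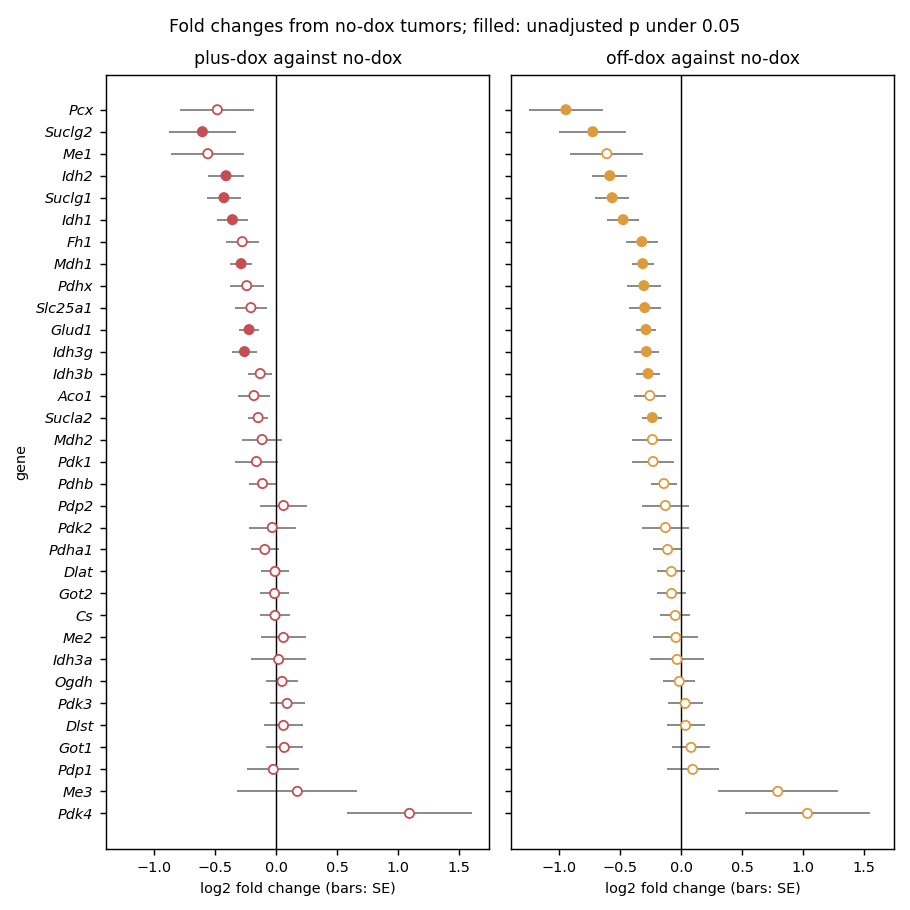
Log2 fold changes with SE of the 33 genes in plus-dox (left) and off-dox (right) against no-dox tumors, ordered by the off-dox value, with filled points at an unadjusted p under 0.05. The filled points, 7 on the left and 13 on the right, all lie below 0, and Pdk4 and Me3 have the widest errors among the genes above 0.

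Withdrawal of dox for 3 days was addressed by off-dox against plus-dox tumors. Of the 33 genes 30 were lower and 3 higher in off-dox tumors, where 50.1% of all genes were lower, with a median log2 fold change of −0.07. The groups overlapped for all 33, where 1.4% of all genes did not (0.752% lower), and edgeR called 0 of the 33, with 0 at an unadjusted p under 0.05 against 3.06% of all genes (1.81% lower). DESeq2 called 0 of the 33, where it called 6 of all genes without and 4 with moderated fold changes. The largest differences were in Me3, with a log2 fold change of 0.62, and Pcx, with −0.46, both at an edgeR adjusted p of 1. In a joint test of all 3 groups, edgeR called 0 of the 33 (lowest adjusted p 0.208), with 9 at an unadjusted p under 0.05 against 14.9% of all genes.

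The 24 neighboring genes of the pathway that were also examined, among them the succinate dehydrogenase subunits, Dld, the pyruvate carriers Mpc1 and Mpc2 and the glutaminases, were counted in the same way. In plus-dox against no-dox tumors 19 were lower and 5 higher, with a median log2 fold change of −0.19, 6 at an unadjusted p under 0.05 (5.67% of all genes were lower at this p) and 4 without overlap (4.49% of all genes), all lower. In off-dox against no-dox tumors 21 were lower and 3 higher, with a median of −0.25, 8 at an unadjusted p under 0.05 (9.48% of all genes were lower at this p) and 4 without overlap (5.69%), all lower. Under the study's limits edgeR called 0 of them in either comparison, where 0% and 1.34% of all genes were called. The lowest adjusted p in the latter was 0.098, for Sdhc, a membrane subunit of succinate dehydrogenase named here after its value was seen. Gpt, the cytosolic alanine transaminase, was at 12.4, 13.6, 10.4 and 12.5 RPKM in no-dox and 9.59, 2.69, 6.39 and 8.64 in plus-dox tumors, which did not overlap, and at 12.8, 6.84, 4.72 and 3.13 in off-dox tumors, which overlapped with no-dox. Its log2 fold changes from no-dox were −0.84 and −0.81, with edgeR adjusted p of 0.384 and 0.282.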

How the data were processed

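RNA was sequenced by the study from 12 whole tumors, 4 per group, as polyA libraries without strand information, so reads of overlapping and antisense genes cannot be told apart. The submitters' processing notes name CASAVA 1.8.2, Bowtie 0.12.8, TopHat 1.4.1 and bedtools 2.16.2 and the builds mm9 and hg19, and the files give mm9 coordinates. The authors deposited expected counts, that is, base-wise coverage of each RefSeq gene's exonic span in reads, and RPKM per total of mapped reads. The authors called genes with DESeq2.

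Counts were rounded to whole numbers, and genes with at least 10 counts over the 12 tumors (17561) were tested in edgeR 4.0.16 (R 4.3.3) by its quasi-likelihood test with TMM scaling in 1 fit of the 3 groups. P-values were adjusted over all of these genes by the Benjamini-Hochberg method. A call followed the study's limits of over 1.5-fold change with an adjusted p under 0.1 in genes longer than 250 bp whose mean RPKM exceeded 0.25. Positive log2 fold changes mean higher levels in the group named first, and errors are SE for fold changes and SD for levels. Groups were said not to overlap on log2 CPM (prior count 2), where a full separation of 4 against 4 tumors has the smallest 2-sided p of 0.029 that an exact permutation test over 70 arrangements allows. The scripts were tested on simulated data.

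The 33 genes and all lists were chosen with earlier results of these data known. Genes were named with full values where they were called, did not overlap, or had an unadjusted p under 0.05 in a comparison, and others by level or counts. Pdk4, Mdh2, Dld and the genes with upstream sequences or RPKM ratios were described further after their values were seen. Mpc1, Mpc2 and Adgre1 were found under older symbols, and 1 T cell marker was not matched. Marker lists covered epithelial, fibroblast, muscle, adipocyte, macrophage, endothelial, T and NK, and erythroid cells. Fibroblast sums were 1320 to 2297, 1847 to 3407 and 1524 to 1761 RPKM in no-dox, plus-dox and off-dox tumors, macrophage sums 2088 to 3173, 2477 to 2966 and 2318 to 4090, endothelial sums 36.7 to 51.1, 46.7 to 138 and 41.1 to 62.4, T and NK sums 2.56 to 4.33, 5.16 to 6.69 and 4.78 to 8.81, and erythroid sums 0.648 to 1.81, 0.636 to 4.89 and 1.76 to 2.87, with 2 of 6 erythroid markers at 0 in all tumors. The exonic spans counted for Hba-a1, Hba-a2, Hbb-b1 and Hbb-b2 were only 6, 14, 20 and 4 bp. The erythroid sums and zeros therefore cannot show how much blood the tumors held.

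Upstream sequences and the share of windows with a motif come from a RefSeq table of GRCm38.p6 starts, a build other than mm9. The alternatives were DESeq2 1.42.0 (moderated and unmoderated), RLE scaling, other count filters, the 8 tumors of a pair alone, a replicate block, other limits on the adjusted p and each tumor left out. Fits without the 3 tumors highest in muscle or the 4 highest in adipocyte markers and with the epithelial marker level or the share of reads on genes as a covariate were added after seeing the data. Within groups, libraries differed far beyond counting noise, so no library was counted as a copy of another.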

Additional observations from a re-analysis of the deposited data

Results flagged for a closer look

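Among 99 sets of 4 tumors (33 genes in 3 groups), 11 held 1 tumor whose RPKM stood apart from the other 3 by more than the 95% critical value of Dixon's gap test, where chance alone gives about 5. Plus-dox tumor 2 was the tumor in 4 of these. It was highest for Pdk4 (5.46 against 1.35 to 1.97), Mdh2 (178 against 121 to 129) and Got2 (46.4 against 35.3 to 36.6), and lowest for Me1 (17.3 against 41.6 to 45.4). Off-dox tumor 4 was highest for Pdhb (42.7 against 35.9 to 36.0) and Ogdh (20.9 against 16.9 to 17.0). Off-dox tumor 1 was highest for Mdh1 (76.9 against 64.4 to 66.0) and plus-dox tumor 3 lowest for Fh1 (37.0 against 52.9 to 54.0). In the no-dox group, tumor 4 was lowest for Dlst (36.7 against 43.9 to 44.4) and Suclg1 (55.3 against 69.5 to 72), and tumor 2 was highest for Aco1 (21.0 against 15.2 to 15.8).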

How the results depend on the processing

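The count of 1 of the 33 genes called in off-dox against no-dox tumors did not hold under most other settings, and the cause was not tested. It was 0 under RLE scaling, without a filter on counts, with at least 10 counts in every tumor, with the 8 tumors of the pair alone, with an adjusted p under 0.05, without the 4 adipocyte-high or the 3 muscle-high tumors, and with either covariate. It was 2 with unmoderated DESeq2 (Pcx and Suclg2), 1 with moderated DESeq2 (Pcx), 3 with an adjusted p under 0.1 alone, and 0 to 3 when 1 tumor was left out, with 3 (Suclg1, Suclg2 and Idh2) without off-dox tumor 1. Over all genes, edgeR called 235 in this comparison, 0 to 789 when 1 tumor was left out, 615 with unmoderated DESeq2, 396 with moderated DESeq2, 122 without a filter, 365 with 10 counts in every tumor, 3 with the pair alone and 471 without plus-dox tumor 2 and off-dox tumor 4. In plus-dox against no-dox tumors, DESeq2 called 128 genes unmoderated and 90 moderated, and in off-dox against plus-dox 6 and 4, where edgeR called 0. The median log2 fold change over the 33 genes was −0.07 to −0.17 in plus-dox and −0.15 to −0.23 in off-dox against no-dox tumors, and −0.02 to −0.12 in off-dox against plus-dox, when 1 tumor was left out. It moved to −0.12 (off-dox against no-dox) and 0.068 (off-dox against plus-dox) without the 3 muscle-high tumors, to −0.23 (plus-dox against no-dox) with the epithelial covariate, and to 0.034 and −0.012 (plus-dox and off-dox against no-dox) with the share of reads on genes as covariate. Under that covariate the direction turned for Slc25a1 (0.045 in plus-dox and 0.041 in off-dox against no-dox) and Pdhx (0.035 in off-dox against no-dox). Genes without overlap numbered 3 on deposited RPKM in plus-dox against no-dox tumors, against 5 on log2 CPM. These 3 are also the genes with an exact permutation p under 0.05 on log2(RPKM + 0.1). When 1 tumor was left out, the numbers were 5 to 9, 8 to 15 and 0 to 1 in the 3 comparisons. Leaving out a tumor can only keep or raise such a number, so these ranges cannot show that it holds. The share of all genes was not computed for them. The joint test of 3 groups called 0 to 2 of the 33 when 1 tumor was left out, with 2 without off-dox tumor 1. The number over all genes was not computed for these joint tests, so they cannot show whether such calls are particular to the 33.

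Same-numbered tumors were not more alike on average than others: over 14548 genes, deviations of same-numbered tumors had a mean correlation of −0.09 (from −0.45 to 0.57 in 12 pairs) against 0.04 in 36 pairs of different number (from −0.68 to 0.67). With ranges this wide, these correlations cannot settle whether the numbers mark a shared mouse or batch. With the replicate block, 0 of the 33 genes were called in each comparison, and 0 genes of all were called off-dox against no-dox. The 4 tumors per group limit what can be detected, and the counts of each gene other than Me3 were at least 67 in every tumor, so counting error adds little for them.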

Other observations

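Plus-dox tumor 2 had the lowest Epcam of the 12 tumors, whereas off-dox tumor 3 had the lowest sum of epithelial markers (1186 against 1370 RPKM). The abundant keratins Krt8, Krt18 and Krt19 were at 318, 391 and 103 RPKM in off-dox tumor 3. They were at 532, 608 and 179 RPKM in plus-dox tumor 2. Every other marker of the list was lower in plus-dox tumor 2 than in off-dox tumor 3. Plus-dox tumor 2 was the highest tumor for 10 of the 33 genes. It had 39.4 RPKM of Idh3a against 20.9 to 36.7 in the other 11 tumors, and 57.0 of Dlst against 36.7 to 52.0. The RPKM ratio of Mdh2 to Mdh1 was 2.49 in it and 2.40 in off-dox tumor 4, against 1.61 to 2.01 in the other 10 tumors, a split noticed after seeing the data that runs across the groups. The ratio of Me1 to Me2 was 0.836 and 1.4 in the same 2 tumors against 2.31 to 5.74 in the others.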
